A study of Homo sapiens with 6 samples.

Results

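The vascular endothelial growth factor (VEGF) ligands VEGFA, VEGFB, VEGFC and PGF (placental growth factor), the receptor tyrosine kinases KDR, FLT1 and FLT4 and the co-receptors NRP1 and NRP2 (neuropilins) were followed in ARPE-19 cells, an established human line derived from retinal pigment epithelium. The arrays came from 3 samples treated with SRPIN803 at 10 µM for 4 h and 3 samples treated with the control, 0.1% DMSO, for 4 h, all grown in serum-containing medium. SRPIN803 is a small molecule that blocks protein kinase CK2 and SRPK1, which phosphorylates splicing factors, and it is known to lower VEGF production in retinal pigment epithelium. Members were taken as every probe set, a group of short probes for 1 transcript region, whose annotation names 1 of these genes and no other. This gave 33 probe sets for the 9 genes, of 54613 non-control probe sets and 19775 genes on the array.

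VEGFA binds KDR and FLT1 on endothelial cells and drives vessel growth and leakage, PGF and VEGFB bind FLT1, and VEGFC binds FLT4 and drives lymphatic growth. Neuropilins bind both VEGF ligands and class 3 semaphorins and act beside the receptor kinases. In the eye, retinal pigment epithelium is a main source of VEGFA, which keeps the capillaries of the choroid alive and feeds pathological vessel growth when in excess.

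After SRPIN803, transcripts of 2 ligands fell, VEGFA by up to 0.85 and VEGFC by 0.41 on the log2 scale, while VEGFB and PGF did not pass the test. The co-receptors moved apart on their brightest probe sets, with NRP1 lower and NRP2 higher, both called among genes but not among all probe sets. With the mean of all probe sets of each gene, neither was called, at -0.10 for NRP1 and 0.07 for NRP2. None of the 10 probe sets of KDR, FLT1 and FLT4 was called, and 9 of these 10 lay below the median level of the array. Values are log2 RMA values as the authors deposited them, differences are SRPIN803 minus DMSO, and errors beside differences are limma's standard errors. A probe set was called at an adjusted p under 0.05, Benjamini-Hochberg over all 54613 probe sets.

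**Figure D1:**
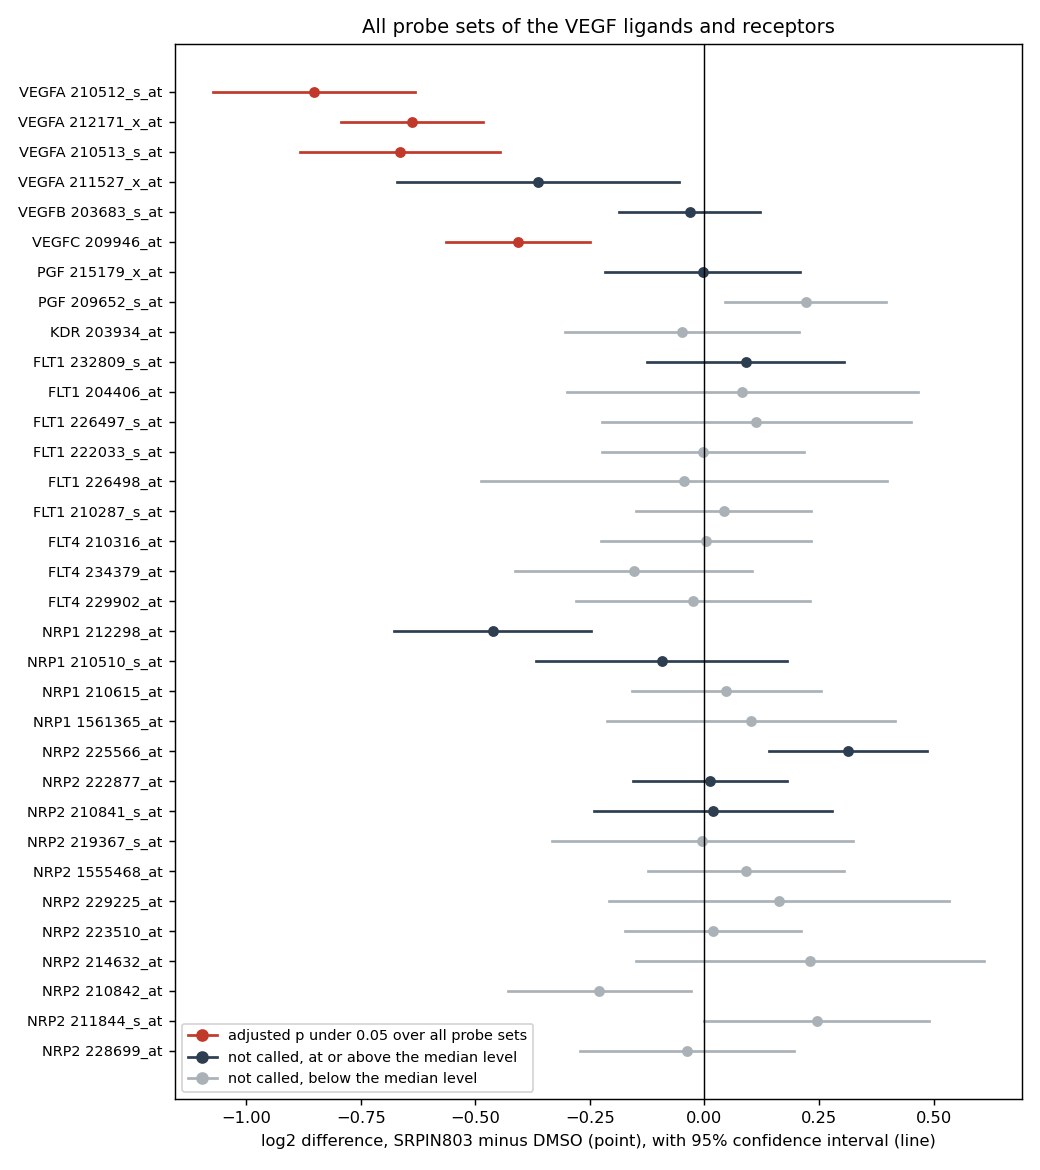
Log2 difference between SRPIN803 and DMSO arrays (horizontal axis, points, with 95% confidence intervals as lines) for each of the 33 probe sets, grouped by gene and ordered within a gene from bright to dim. The 4 called probe sets, 3 of VEGFA and 1 of VEGFC, lie left of 0, from -0.85 to -0.41.

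Array medians lay between 5.25 and 5.28, and arrays correlated across probe sets at r = 0.9957 to 0.9977 in the same group and at 0.9940 to 0.9961 in different groups. RNA quality, read as the 5' minus 3' log2 value of the array's actin probe sets, was -1.76 ± 0.36 in SRPIN803 and -1.77 ± 0.31 in DMSO (SD, n = 3 each). Of 12 markers of retinal pigment epithelium, 6 lay at or above the median level of genes. They were the keratin genes KRT8 and KRT18, the transcription factor genes OTX2 and MITF, and BEST1 and SERPINF1. Below that level lay RLBP1, LRAT, TTR, PMEL, TYRP1 and RPE65. The visual cycle gene RPE65, which defines the mature epithelium, was near the bottom of the scale at 2.24 ± 0.06 in SRPIN803 and 2.42 ± 0.29 in DMSO (SD, n = 3 each). Whether the replicates were grown separately is not in the labels, and the p-values therefore cover only the spread among these 6 samples, which may be technical. In bulk RNA, fewer cells that express a gene and less of its RNA per cell cannot be told apart.

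VEGFC and NRP2 were called among genes, each by its brightest probe set, in opposite directions. NRP2 was not called over all probe sets, and with the mean of its probe sets its difference was 0.07 (limma's adjusted p = 0.677). Because of those calls, the promoter windows of VEGFC and NRP2 are shown. Each is the 250 bases before the gene's start in RefSeq (GRCh38.p14), read 5′ to 3′ on the gene's strand, chr4:176792923-176793172 on the minus strand for VEGFC and chr2:205682251-205682500 on the plus strand for NRP2. Capitals mark the GC box, GGGCGG on either strand, a sequence that Sp1-type factors bind.
VEGFC: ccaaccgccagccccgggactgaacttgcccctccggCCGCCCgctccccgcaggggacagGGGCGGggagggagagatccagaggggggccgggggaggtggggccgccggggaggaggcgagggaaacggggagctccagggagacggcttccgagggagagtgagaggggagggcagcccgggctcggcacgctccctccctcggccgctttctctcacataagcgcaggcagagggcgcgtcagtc
NRP2: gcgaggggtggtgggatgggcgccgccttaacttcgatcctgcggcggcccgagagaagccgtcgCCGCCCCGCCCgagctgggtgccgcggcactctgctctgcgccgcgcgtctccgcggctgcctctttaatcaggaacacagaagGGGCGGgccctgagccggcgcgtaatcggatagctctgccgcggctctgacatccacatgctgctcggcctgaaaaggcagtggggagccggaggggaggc
The VEGFC window held 2 GC boxes, beginning 213 and 189 bases before the start, and the NRP2 window held 3, beginning 185, 180 and 101 bases before it, of which the first and second overlap. The 5 other windows of members, of VEGFB, PGF (2 windows), KDR and FLT1, each held at least 2. At least 1 GC box was in 42.6% of the 35116 windows of the reference, which do not cover every gene. The member windows were 65.2% to 82.8% G and C, against a median of 58% for all windows. The ACGTG form of the hypoxia response element core (either strand), present in 18.5% of all windows, was in none of the 7 member windows. The GCGTG form of that core was not counted, and the VEGFC window holds it on the other strand, as cacgc. The 7 member windows stand for 6 genes, and the 2 windows of PGF overlap. They are too few to show that the ACGTG form is rarer there. No window of VEGFA, FLT4 or NRP1 was used here.

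VEGFA was the member with the largest change, and its 4 probe sets all lay above the median level. On the brightest, 210512_s_at, the SRPIN803 arrays read 9.75, 9.93 and 9.84, against 10.52, 10.80 and 10.75 on the DMSO arrays. The groups lay well apart, with a ratio of SRPIN803 to DMSO of 0.554 (95% interval 0.476 to 0.645) and limma's adjusted p = 0.00777. Its difference of -0.85 ± 0.09 ranked 90 from the most negative of the 54613.

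The 3 other VEGFA probe sets were lower after SRPIN803 as well. For 212171_x_at the values were 7.58, 7.68 and 7.60 in SRPIN803, against 8.29, 8.22 and 8.26 in DMSO, a difference of -0.64 ± 0.07 with limma's adjusted p = 0.00620. For 210513_s_at they were 6.23, 5.99 and 6.15 in SRPIN803, against 6.89, 6.82 and 6.65 in DMSO, a difference of -0.66 ± 0.09 with limma's adjusted p = 0.0162. In both, the highest SRPIN803 array lay below the lowest DMSO array. The dimmest, 211527_x_at, read 6.09, 5.97 and 6.05 in SRPIN803 and 6.27, 6.21 and 6.72 in DMSO. Here too the groups did not overlap, but DMSO replicate 3 stood above the rest of its group, and the difference of -0.36 ± 0.13 was not called (limma's adjusted p = 0.237). Without that array it was -0.20.

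The calls of 210512_s_at and 212171_x_at held without each array in turn, with limma's adjusted p of at most 0.0493 and 0.0448. The call of 210513_s_at was lost without SRPIN803 replicate 3 or DMSO replicate 1 or 2, with limma's adjusted p up to 0.0823. Probe sets whose names end in _x_at hold probes that may bind other transcripts, and those ending in _s_at hold probes shared by several transcripts, so none of the 4 was assigned to a splice form. Whether the VEGFA probe sets changed unequally was tested with limma's diffSplice on those above the median level that do not end in _x_at. The difference of 210512_s_at was 0.19 more negative than that of 210513_s_at, and the gene did not pass (Simes adjusted p = 0.511), where 3.36% of 5535 genes did.

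VEGFC, the lymphatic ligand, has 1 probe set, 209946_at. It read 8.46, 8.52 and 8.40 in SRPIN803, against 8.83, 8.87 and 8.90 in DMSO. The groups did not overlap and the replicates of each lay close together. The ratio of SRPIN803 to DMSO was 0.755 (0.677 to 0.841), a difference of -0.41 ± 0.07 with limma's adjusted p = 0.0285. This call was lost with any 1 array left out, where limma's adjusted p ran from 0.0505 to 0.126 and the difference from -0.43 to -0.38. The change of VEGFA (210512_s_at) was more negative than that of VEGFC by 0.45 on the log2 scale, with non-overlapping groups. An exact two-sided permutation test of that difference, chosen after its values were seen, gave p = 0.1, the smallest that 3 against 3 arrays allow. Any 3 against 3 arrays without overlap give this value, so the test could not decide more.

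VEGFB, a ligand of FLT1, read 7.29, 7.30 and 7.34 on its only probe set, 203683_s_at, in SRPIN803, against 7.39, 7.35 and 7.29 in DMSO. The groups overlapped, and the difference of -0.03 ± 0.07 had a 95% interval of -0.19 to 0.12 (limma's adjusted p = 0.883). That interval does not reach the difference of VEGFC.

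PGF, the placental ligand of FLT1, gave a different picture on each of its 2 probe sets. The bright 215179_x_at read 8.32, 8.18 and 8.38 in SRPIN803 and 8.21, 8.23 and 8.44 in DMSO. The groups overlapped, with a difference of -0.0037 ± 0.092 and a 95% interval of -0.22 to 0.21. The dim 209652_s_at, below the median level, read 4.56, 4.59 and 4.51 in SRPIN803, against 4.34, 4.43 and 4.23 in DMSO. All SRPIN803 arrays were the higher ones there, and the difference of 0.22 ± 0.08 was not called (limma's adjusted p = 0.206).

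**Figure D2:**
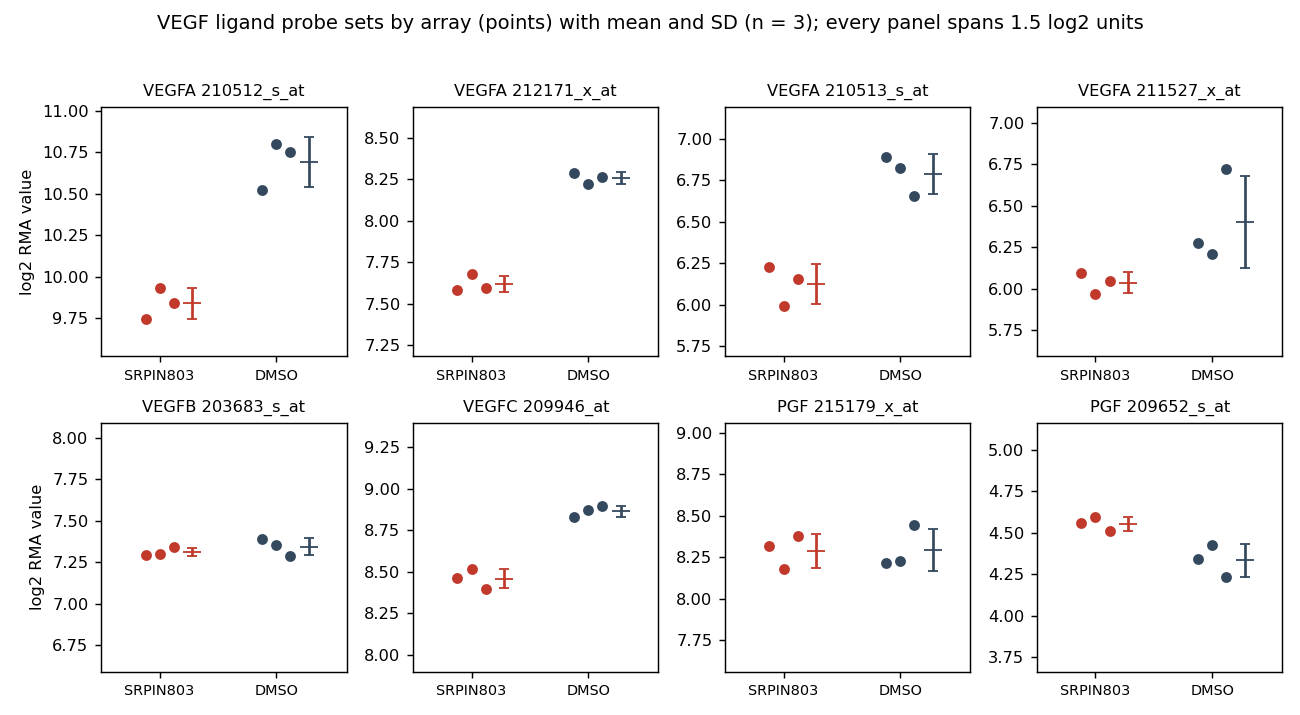
Log2 RMA values of the 8 ligand probe sets on each array (points; vertical axes differ in position but each spans the same range), with group means and SD (n = 3). SRPIN803 points lie below all DMSO points for the 4 VEGFA probe sets and VEGFC, above them for PGF 209652_s_at, and among them for VEGFB and PGF 215179_x_at.

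KDR, the main signalling receptor for VEGFA on endothelium, lay below the median level on its only probe set, 203934_at. It read 4.34, 4.10 and 4.01 in SRPIN803 and 4.36, 4.10 and 4.14 in DMSO. The groups overlapped almost fully, and the difference was -0.05 ± 0.11 (limma's adjusted p = 0.893).

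FLT1, which binds VEGFA, VEGFB and PGF, has 6 probe sets, of which 232809_s_at was the only one above the median level. That probe set read 6.53, 6.79 and 6.49 in SRPIN803 and 6.54, 6.53 and 6.47 in DMSO, a difference of 0.09 ± 0.09 (limma's adjusted p = 0.726). SRPIN803 replicate 2 alone stood above the others, and without it the difference was -0.0031. The 5 dim probe sets of FLT1, at mean levels of 2.63 to 3.38, gave differences of -0.04 to 0.11 with overlapping groups.

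FLT4, the receptor for VEGFC, lay below the median level on all 3 probe sets. The brightest, 210316_at, read 4.88, 4.78 and 4.91 in SRPIN803 and 4.80, 5.04 and 4.71 in DMSO, a difference of 0.0034 ± 0.099 whose sign turned with median centring or cyclic loess. For 234379_at the difference was -0.15 ± 0.11, with 4.86, 4.53 and 4.55 in SRPIN803 and 4.76, 4.95 and 4.70 in DMSO, and for 229902_at it was -0.02 ± 0.11. Neither passed the test, and the 95% intervals of all 10 receptor kinase probe sets lay between -0.49 and 0.47. Of 8 markers of blood vessel endothelium, where these receptors are known to act, 0 reached the median level of genes, 6.53. That level is higher than the median of probe sets, 5.26, against which the receptors were set. PECAM1, CD34 and CLDN5, at mean levels of 6.36, 6.08 and 5.65, lay above the median of probe sets, and the other markers below it. The summed linear level of the 8 markers was 268 to 303 in SRPIN803 and 268 to 294 in DMSO. None of the 3 markers of lymphatic endothelium, 7 of fibroblasts and smooth muscle or 4 of macrophages and leukocytes was called either. The median level of genes was reached by PDPN alone of the lymphatic markers. It was reached by 3 of the fibroblast and smooth muscle markers (COL1A1, ACTA2 and PDGFRB) and 0 of the macrophage and leukocyte markers. The files hold no detection calls, so it cannot be said which of the dim receptor and marker probe sets measured any transcript.

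NRP1, a co-receptor for VEGFA, was lower after SRPIN803 on its brightest probe set, 212298_at. The values were 8.69, 8.50 and 8.36 in SRPIN803, against 8.98, 9.01 and 8.94 in DMSO. The groups did not overlap, while the SRPIN803 arrays spread far more widely (SD 0.17) than the DMSO arrays (SD 0.03). The ratio of SRPIN803 to DMSO was 0.726 (0.625 to 0.843), a difference of -0.46 ± 0.09. Over all probe sets it just missed the call (limma's adjusted p = 0.0516), and among genes, each by its brightest probe set, it passed (limma's adjusted p = 0.0262). With 1 array left out it passed among genes only without SRPIN803 replicate 1, and limma's adjusted p was otherwise up to 0.0979.

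The other probe set of NRP1 above the median level did not show that difference. On 210510_s_at the values were 6.55, 6.68 and 6.26 in SRPIN803 and 6.73, 6.53 and 6.52 in DMSO, overlapping, with a difference of -0.09 ± 0.12. The 2 dim ones, 210615_at and 1561365_at, had differences of 0.05 ± 0.09 and 0.10 ± 0.14. On all 4 NRP1 probe sets SRPIN803 replicate 3 was the lowest of its group. The difference of 212298_at was 0.37 more negative than that of 210510_s_at, which did not pass diffSplice (Simes adjusted p = 0.239). With the mean of all 4 probe sets in place of the brightest, the difference was -0.10 (limma's adjusted p = 0.659).

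NRP2, the neuropilin that binds VEGFC as well as VEGFA, was higher on its brightest probe set, 225566_at. It read 5.73, 5.75 and 5.60 in SRPIN803, against 5.32, 5.44 and 5.38 in DMSO, so that the groups did not overlap. The ratio was 1.24 (1.10 to 1.40), a difference of 0.31 ± 0.07. It was not called over all probe sets (limma's adjusted p = 0.0810) and passed among genes (limma's adjusted p = 0.0374), where the call was lost with any 1 array left out (limma's adjusted p of 0.0508 to 0.133). The mean level of this probe set, 5.54, lay above the median of probe sets (5.26) but below the median of genes (6.53).

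The 10 other NRP2 probe sets ranged in difference from -0.23 to 0.24, and 0 of them were called (the lowest unadjusted p was 0.0298). Of these, 222877_at and 210841_s_at lay above the median level, with differences of 0.01 ± 0.07 and 0.02 ± 0.11 and overlapping groups. Among the 8 dim ones, 211844_s_at read 3.80, 3.45 and 3.45 in SRPIN803, against 3.35, 3.26 and 3.36 in DMSO. In contrast, 210842_at read 3.87, 3.90 and 3.80 in SRPIN803, against 4.22, 4.08 and 3.95 in DMSO. These were the only dim NRP2 probe sets whose groups did not overlap, and they lay in opposite directions. The value of 214632_at, 0.23 ± 0.16, rested on SRPIN803 replicate 1, at 5.02 where the other SRPIN803 arrays read 4.36 and 4.41, and was 0.02 without it. NRP2 did not pass the test for unequal probe sets (Simes adjusted p = 0.203), and with the mean of all 11 its difference was 0.07 (limma's adjusted p = 0.677).

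The difference of NRP1 (212298_at) was more negative than that of NRP2 (225566_at) by 0.78 on the log2 scale, with non-overlapping groups. An exact two-sided permutation test of this contrast, chosen after its values were seen, gave p = 0.1, the smallest possible. Groups that do not overlap always give this value, so the test adds nothing to them.

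**Figure D3:**
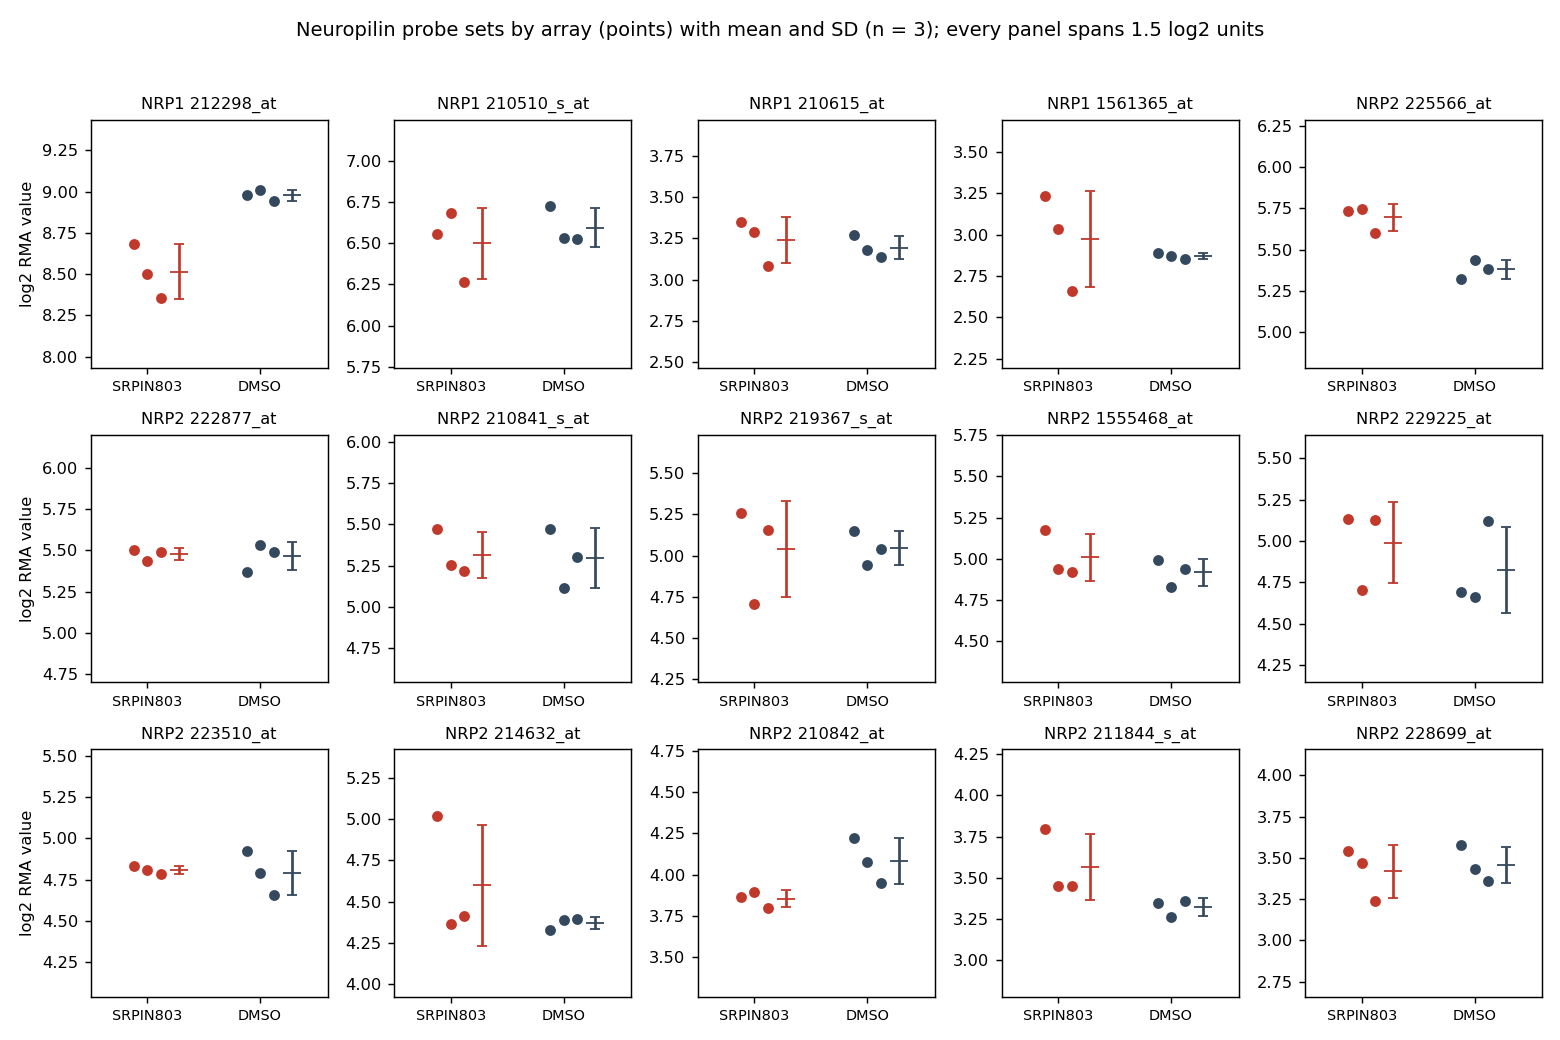
Log2 RMA values of the 4 NRP1 and 11 NRP2 probe sets on each array (points; every vertical axis spans the same range), with group means and SD (n = 3). The groups separate on NRP1 212298_at, with SRPIN803 lower, and on NRP2 225566_at, with SRPIN803 higher, while most other panels overlap.

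Counted together, 4 of the 33 probe sets were called, where 2.22% of all probe sets were. All 4 were lower and 0 higher, where 1.03% of all probe sets were called lower and 1.19% higher. All were among the 13 members at or above the median level of 5.26, where 3.83% of probe sets were called, and 0 were among the 20 dim ones (2 at an unadjusted p under 0.05). The groups did not overlap in 10 of the 33, against 21.5% of all probe sets, with 3 of the 33 higher and 7 lower, against 11.3% and 10.1% of all. The median difference was -0.38 over the 8 ligand probe sets, -0.000081 over the 10 receptor kinase probe sets and 0.02 over the 15 co-receptor probe sets, beside 0.01 over all probe sets. VEGFA holds 4 of the 8 ligand probe sets, so that median is not one of the ligands as a class. By brightest probe set the ligands were at -0.85 (VEGFA), -0.41 (VEGFC), -0.03 (VEGFB) and -0.0037 (PGF). With 1 value per gene, 4 of 9 members passed (VEGFA, VEGFC and NRP1 lower, NRP2 higher), where 5.84% of all genes did, 3.46% higher and 2.37% lower.

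Genes that act around VEGF were listed by role, each gene by its brightest probe set and called at an adjusted p under 0.05 over all genes. The median difference over all genes was 0.02. Among VEGFD (which had no probe set used here) and the PDGF ligands and receptors, relatives of the VEGF family, 1 of 6 fell and 0 rose, with a median of -0.03. The gene that fell was PDGFB, a growth factor for pericytes, which read 6.25, 6.24 and 6.52 in SRPIN803, against 6.84, 6.94 and 6.83 in DMSO (difference -0.53 ± 0.09, limma's adjusted p = 0.0174). It kept the call only without SRPIN803 replicate 3 when 1 array was left out (limma's adjusted p up to 0.0755), and with the mean of its probe sets the PDGFB gene was at -0.22 and not called. Among class 3 semaphorins and plexins, the other ligands and partners of neuropilins, 1 of 12 fell and 0 rose, with a median of 0.03. That was PLXNA2, a semaphorin receptor, at 6.56, 6.59 and 6.53 in SRPIN803, against 7.19, 7.16 and 7.21 in DMSO, a difference of -0.62 ± 0.05 (limma's adjusted p = 0.00180). PLXNA2 stayed called with any 1 array left out, between -0.64 and -0.61.

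Of 13 transcription factors known to act on the VEGFA promoter 2 fell and 1 rose, with a median of 0.01. EGR1, an immediate early factor, read 7.11, 7.61 and 7.60 in SRPIN803, against 8.14, 8.38 and 8.25 in DMSO, a difference of -0.82 ± 0.14 (limma's adjusted p = 0.0192, lost without DMSO replicate 2 or 3). MITF, the pigment cell factor, was at 0.35 ± 0.07 (limma's adjusted p = 0.0312), a call lost with any 1 array left out and with the mean of the gene's probe sets, at 0.11 (limma's adjusted p = 0.410). JUN, named after its values were seen, was the other that fell, at -0.32 ± 0.07 (limma's adjusted p = 0.0406, lost with any 1 array left out, at 0.0693 to 0.131). The hypoxia factors HIF1A and EPAS1 and their partner ARNT, named likewise, had differences of 0.01 ± 0.06, 0.04 ± 0.06 and 0.02 ± 0.09. In oxygen sensing and HIF control 0 of 8 genes were called, with a median of 0.06 and the smallest p for CREBBP, a co-activator, at 0.28 ± 0.08 (limma's adjusted p = 0.0838). CREBBP was called when only genes at or above the median level were tested and with a trended variance, where limma's adjusted p was 0.0196, and with the mean of its probe sets the difference was 0.087 (limma's adjusted p = 0.486).

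Of 13 other HIF target genes 1 rose and 0 fell, with a median of 0.05. The vasodilator peptide gene ADM read 9.58, 9.52 and 9.76 in SRPIN803, against 8.31, 8.30 and 8.39 in DMSO, so that it rose by 1.29 ± 0.08 (limma's adjusted p = 0.000382), opposite in direction to VEGFA. Among RNA-binding proteins known to act on VEGFA mRNA 0 of 10 were called, with a median of 0.03. The smallest p was that of ZFP36, which promotes decay of AU-rich mRNAs, at -0.26 ± 0.09 (limma's adjusted p = 0.180).

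Of 9 splicing factors and kinases known to act on VEGFA pre-mRNA 2 fell and 1 rose, with a median of 0.03. The kinase gene CLK4 was at 0.36 ± 0.08 and the SR protein gene SRSF3 at -0.29 ± 0.07 (limma's adjusted p = 0.0490 and 0.0498). SRSF6, named after its values were seen, was at -0.25 ± 0.05. With 1 array left out, CLK4 kept its call only without DMSO replicate 2, and SRSF3 and SRSF6 in none of the 6 fits. With the mean of its probe sets CLK4 was at 0.085 (limma's adjusted p = 0.692), and neither SRSF3 nor SRSF6 was called. The compound's target SRPK1 was at 0.02 ± 0.07.

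Downstream of VEGF receptors 0 of 19 signalling genes were called, with a median of -0.02. PTPRB, an endothelial receptor phosphatase, had the smallest p, at -0.32 ± 0.08 (limma's adjusted p = 0.0535), and was called with cyclic loess, array weights, a trended variance or a filter on dim genes. Among proteases and matrix partners of VEGF ligands 1 of 14 fell and 0 rose, with a median of -0.0056. ADAMTS1, a protease that can bind VEGFA, read 8.54, 8.74 and 8.52 in SRPIN803, against 9.28, 9.27 and 9.39 in DMSO, a difference of -0.71 ± 0.08 (limma's adjusted p = 0.00418). CCBE1 and ADAMTS3 are among the genes known to take part in the processing of VEGFC. Named after their values were seen, they were at -0.06 ± 0.06 and 0.23 ± 0.09, neither called.

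**Figure D4:**
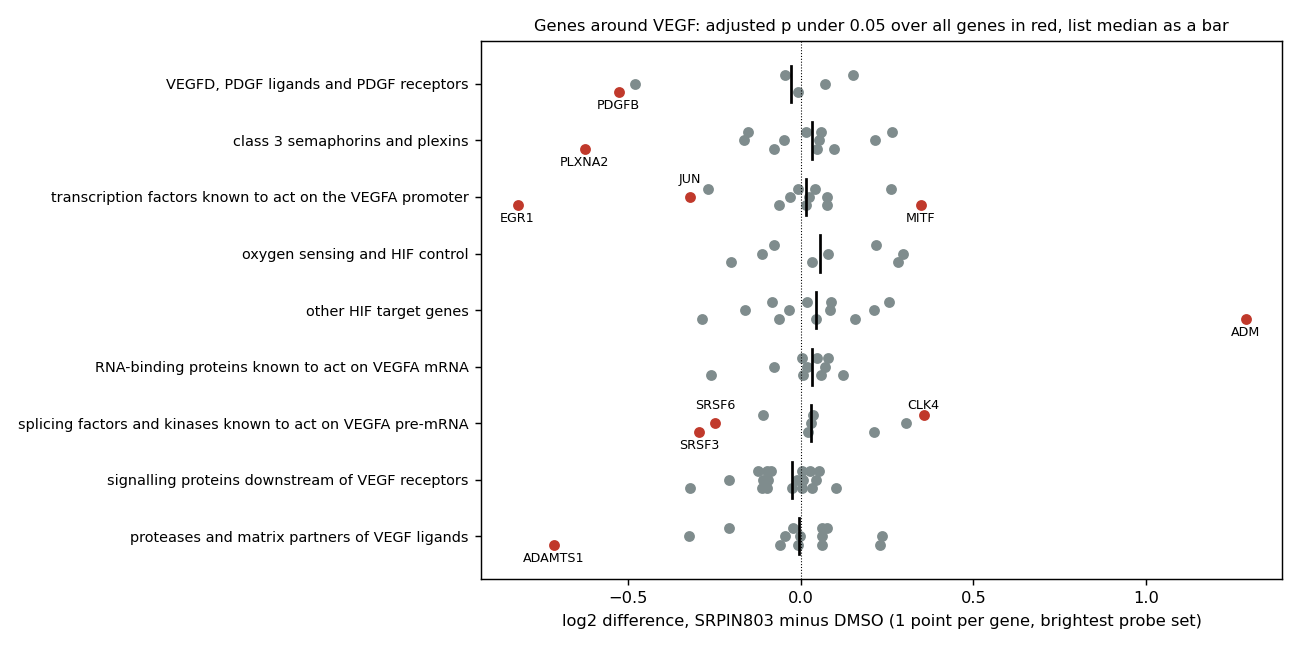
Log2 differences of genes in the 9 lists around VEGF (1 point per gene; called genes in red and named; bars mark list medians). List medians lie between -0.03 and 0.06, and ADM at 1.29 and EGR1 at -0.82 lie farthest out.

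The genes most alike to each called member were found by the root mean square difference between centred log2 values over the 6 arrays, among 9882 genes at or above the median level of genes. The 5 nearest to VEGFA were ADAMTS9, CARD10, the EGF receptor ligand gene HBEGF, E2F5 and MB21D2, at distances of 0.07 to 0.09. Their own differences ran from -0.84 (CARD10) to -0.69 (E2F5). VEGFC had closer neighbours, at 0.01 to 0.03, namely the purine enzyme gene PNP, the helicase gene DDX10, PHLDA2, MID1IP1 and LYSMD2, with differences of -0.43 to -0.37. Nearest to NRP1 were HMGA2, CCDC12, E2F7, the sterol pathway gene IDI1 and TLNRD1, at 0.05 to 0.06. Nearest to NRP2 were LCOR, SNX2, CENPBD1P, DNAJC6 and RPAP3, at 0.03 to 0.04, all higher after SRPIN803 by 0.29 to 0.35. The distance takes in the difference between the groups, so genes with a like difference are near by construction.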

How the data were processed

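The deposited values are on a log2 scale, 1 per probe set and array of Affymetrix 3' arrays, made by the authors with RMA (background correction, normalization between arrays, probe set summary), per the submitters' processing notes. The program that ran it is not given in the sources used here. RMA compresses changes of dim probe sets. The values were used as deposited. Arrays give no read depth, and 3 per group limit the precision.

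Genes came from the platform annotation (41091 of 54613 non-control probe sets name 1 gene) and were matched to RefSeq by gene ID. Groups came from the titles. SRPIN803 was compared with DMSO in limma 3.58.1 (R 4.3.3; lmFit and eBayes, group only, 4 residual degrees of freedom, two-sided, Benjamini-Hochberg) over all probe sets and, separately, over 19775 genes by their brightest probe set. Unequal probe sets were tested with diffSplice. Members, lists and tests were chosen with earlier results of these data known. From each list the text names up to 2 called genes with the largest difference, or the 1 with the smallest p, and others are marked.

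On simulated data with independent probe sets, the probe set test recovered 57% of those changed by 0.5 and 98% of those changed by 1, with 4.91% of calls false. For diffSplice the share recovered was 76% where 1 of a gene's probe sets had been shifted by 0.5, and 10.7% of its calls were false. Alternatives were a replicate block, each array left out, 2 other normalizations, a trended robust variance, array weights, a filter on dim features and the mean of probe sets per gene. Plots used matplotlib 3.10.9 in Python 3.11.15.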

Additional observations from a re-analysis of the deposited data

How the results depend on the processing

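With 1 array left out, 215 to 716 probe sets and 324 to 687 genes were called. Genes with unequal probe sets ran from 46 to 288, member probe sets called from 2 to 4 and member genes called from 1 to 3. The differences ran from -0.94 to -0.80 for VEGFA 210512_s_at, from -0.43 to -0.38 for VEGFC, from -0.55 to -0.38 for NRP1 212298_at and from 0.28 to 0.36 for NRP2 225566_at. VEGFA kept its call in all 6 fits over probe sets and over genes, and VEGFC over genes lost it only without DMSO replicate 3 (adjusted p = 0.0601). Differences that took both signs, none of them called, were those of KDR (-0.15 to 0.030), PGF 215179_x_at (-0.048 to 0.070), FLT1 232809_s_at (-0.0031 to 0.15), 204406_at (-0.053 to 0.29), 210287_s_at (-0.019 to 0.093), 222033_s_at (-0.084 to 0.042) and 226498_at (-0.26 to 0.092), FLT4 210316_at (-0.066 to 0.10) and 229902_at (-0.12 to 0.091), NRP1 1561365_at (-0.027 to 0.26), 210510_s_at (-0.18 to 0.025) and 210615_at (-0.0062 to 0.13), and NRP2 210841_s_at (-0.072 to 0.11), 219367_s_at (-0.11 to 0.16), 222877_at (-0.035 to 0.045), 223510_at (-0.047 to 0.084) and 228699_at (-0.10 to 0.051). The labels number the replicates. Samples of the same number deviated together with r = 0.26, -0.10 and 0.11, and those of different numbers with r from -0.30 to 0.20. With 3 arrays per group, these values cannot decide whether equal numbers were paired. A replicate block gave 304 probe sets, 689 genes and 122 genes with unequal probe sets called, against 1214, 1154 and 186 without it. Under the block 2 member probe sets were called, with VEGFC 209946_at at -0.41 (adjusted p = 0.0916), VEGFA 210513_s_at at -0.66 (0.0597) and the NRP2 gene at 0.31 (0.0724) not called. Of the listed genes, PDGFB, JUN, CLK4, SRSF3 and SRSF6 lost their calls under the block. A trended robust variance called 2997 probe sets and 2036 genes, and testing only features at or above the median level called 2667 and 1944. NRP1 212298_at was called with median centring (-0.47), the trended variance (-0.46), array weights (-0.47) and the level filter (-0.46), and NRP2 225566_at with the level filter (0.31). With the mean of a gene's probe sets, 2 member genes were called, and NRP1 at -0.10 and NRP2 at 0.075 were not. The sign turned for FLT4 210316_at with cyclic loess (-0.0055) and median centring (-0.0086), for the FLT4 gene also with the mean (-0.059), for the PGF gene with the mean (0.11), and with array weights for FLT1 222033_s_at (0.0050) and NRP2 219367_s_at (0.022), none of them called. The cause of these changes was not tested.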
